A study of Mus musculus with 6 samples.

Results

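The Ifi200 family, also called the HIN-200 or PYHIN family, is a group of interferon-inducible genes that lie side by side on mouse chromosome 1. Its expression was described here in sorted blood progenitors of mice with and without deletion of Cebpa. The 10 genes considered were Ifi203, Ifi204, Ifi205, Ifi206, Ifi207, Ifi208, Ifi209, Ifi214, Mndal and Aim2. They were chosen by their place in this cluster and on the rises of Ifi206, Ifi209 and Ifi214 in the same comparison of genotypes. The differences between genotypes given for members below are therefore a description, with no test, and the calls counted among them support nothing. A gene was represented by the array row that names it alone, and 8 of the 10 members had such a row, each 1 row, out of 19938 genes with a row of their own. Mndal had none, and Ifi204 was read only by a row shared with its neighbour Ifi211.

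Proteins of this family typically pair a PYRIN domain, which joins them to other signalling proteins, with a HIN domain, which binds double-stranded DNA. Aim2 detects DNA in the cytosol and assembles the inflammasome through the adaptor Pycard, which activates caspase 1. Ifi204 is a mouse relative of human IFI16 and acts upstream of the adaptor STING in myeloid cells. Type I interferon raises many of these genes through interferon response elements in their promoters, and they are best known from macrophages and other myeloid cells.

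The cells were LSK CD150- cells of the bone marrow, an early progenitor population that carries Sca-1 and Kit, lacks lineage markers and was sorted without the long-term stem cell marker CD150. The control group was 3 Cebpafl/fl mice, in which loxP sites flank both copies of Cebpa, the gene of a myeloid transcription factor. The deleted group was 3 Cebpafl/fl;Mx1Cre mice, which also carry Cre recombinase under the interferon-responsive Mx1 promoter. All 6 mice received pIpC, a double-stranded RNA that evokes interferon, and were taken at day 18, each on its own Affymetrix Mouse Gene 1.0 ST array. The labels give no age or strain, and no group without pIpC or with Mx1Cre on intact Cebpa was used here. The effects of carrying Cre and of losing Cebpa therefore cannot be told apart, and in sorted bulk cells neither can fewer cells of a type and less RNA per cell.

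Cebpa read 7.84, 7.85 and 7.73 in control mice a, b and c and 6.37, 5.82 and 6.09 in deleted mice a, b and c on the log2 scale of the arrays. It fell by 1.71 ± 0.14 (SE, limma adjusted p = 0.000883), and the groups were far apart. Kit, which the sort selects for, and Cd34, a progenitor gene outside the gate, were bright on all 6 arrays (9.23 to 10.31 and 11.19 to 11.62), with Kit called lower in deleted mice (-0.75, adjusted p = 0.0270). Slamf1, which encodes CD150, was dim (3.48 to 4.86, the highest in deleted mouse c), and Ly6a was not analysed here. The labels call the mice female, but the Y-linked genes Kdm5d and Eif2s3y lay between 8.04 and 8.49 on every array. The median of all values was 6.20 on the log2 scale, and precision is limited by there being 6 arrays. With limma, 286 of 19938 genes differed between genotypes at an adjusted p under 0.05, 140 higher and 146 lower in deleted cells.

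The promoters of the cluster are shown because they share an interferon response element, a property that the choice of members did not use. RefSeq windows of build GRCm38.p6, from 250 bases before to 50 bases after each transcription start, covered 9 of the 10 members, all but Ifi204. The letters searched were GAAA, any 2 bases, GAAA, on both strands. The stretches below run from 100 bases to 1 base before the start (for Ifi205 from 150 to 51 bases before it), 5′ to 3′ on the strand of the gene, with matches in capitals.
Ifi206, chr1:173491319-173491418, minus strand: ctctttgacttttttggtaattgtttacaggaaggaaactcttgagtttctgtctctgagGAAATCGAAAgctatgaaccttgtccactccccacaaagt
Ifi208, chr1:173673565-173673664, plus strand: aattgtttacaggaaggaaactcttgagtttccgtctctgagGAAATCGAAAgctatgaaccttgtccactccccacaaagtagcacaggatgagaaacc
Ifi214, chr1:173535958-173536057, minus strand: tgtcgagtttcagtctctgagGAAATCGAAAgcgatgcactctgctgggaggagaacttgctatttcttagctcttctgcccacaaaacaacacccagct
Ifi209, chr1:173630759-173630858, plus strand: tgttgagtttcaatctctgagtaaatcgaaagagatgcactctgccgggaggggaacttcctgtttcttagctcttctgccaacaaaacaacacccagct
Ifi203, second of 2 starts, chr1:173942493-173942592, minus strand: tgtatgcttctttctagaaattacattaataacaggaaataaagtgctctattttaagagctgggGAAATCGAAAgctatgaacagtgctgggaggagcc
Ifi205, chr1:174031806-174031905, minus strand: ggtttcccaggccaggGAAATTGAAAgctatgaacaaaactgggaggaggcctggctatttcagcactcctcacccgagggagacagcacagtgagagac

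The element was in 7 of the 9 member genes with a window (8 of 11 windows, since Ifi203 and Mndal have 2 starts each), against 3.44% of all 32851 windows of this length. Its spelling was nearly fixed: GAAATCGAAA on the strand of the gene stood in 7 genes of the cluster, Ifi206, Ifi214, Ifi213, Ifi208, Ifi207, Mndal and Ifi203. Those 7 windows were 7 of only 16 windows with these letters, on either strand, among all 32851 (0.0487%). Ifi211 and Ifi205 carried GAAATTGAAA instead. In 8 genes of the cluster the match began between 90 and 30 bases before the start, a range set after the positions were seen, where 0.292% of all windows hold one on the gene's strand. Ifi205 had its match at position -134 from the start and a further one on the opposite strand after it.

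Ifi209 and Aim2 were the members whose windows held no match. In Ifi209 the letters at the place of the Ifi214 element were TAAATCGAAA, which is the substitution G1T, counted from 1 at the 5′ end of the element with the base of Ifi214 first. Over the 100 bases before the start, 91 were the same in Ifi214 and Ifi209. Several promoters of the cluster shared long identical runs: the longest over the 250 bases before the start was 182 bases between Ifi206 and Ifi208, 135 between Ifi206 and Ifi213, 109 between Ifi214 and Ifi209, and 96 between Mndal and Ifi203. No member window held a gamma-activated site (TTC, any 3 bases, GAA), found in 8.30% of all windows. None held the C/EBP palindrome (TTGC followed directly by GCAA), found in 0.183% of all windows. At these shares 11 windows would often hold neither, and other spellings of a C/EBP site were not searched. No matches of different motifs overlapped in the cluster. These are matches of letters only and say nothing of binding.

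**Figure D1:**
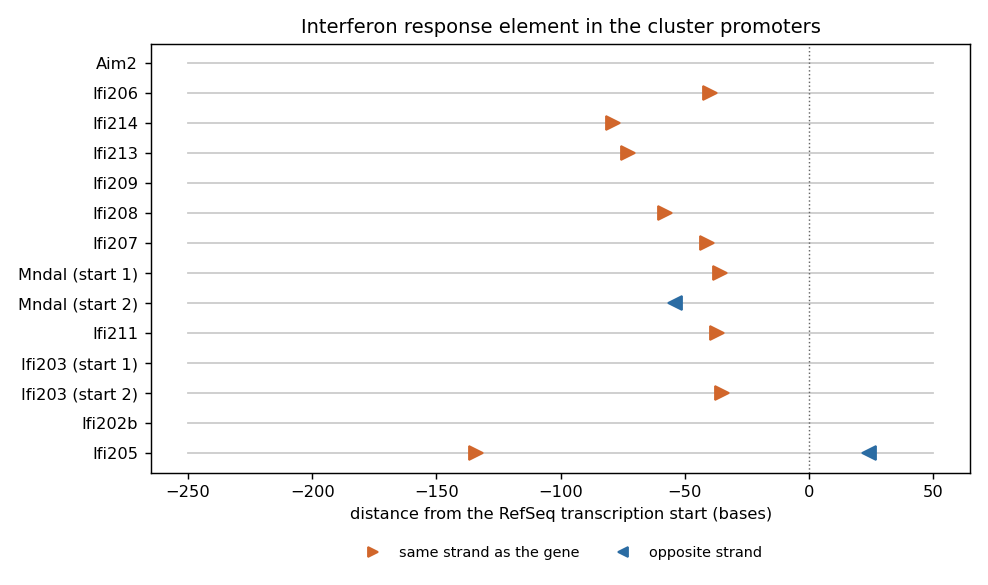
Position of the interferon response element (GAAA, any 2 bases, GAAA) in the RefSeq promoter windows of the HIN-200 cluster, as distance in bases from the transcription start at 0, with 1 line per window in chromosome order. Triangles pointing right are matches on the strand of the gene, most of them between 90 and 30 bases before the start, and triangles pointing left are on the opposite strand; Ifi209, Aim2, Ifi202b and the first start of Ifi203 have none.

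Of the 8 measured members, Ifi206, Ifi209 and Ifi214, the genes that prompted the choice, read higher in all 3 deleted mice than in any control, by 3.01-fold, 4.19-fold and 2.26-fold. Ifi203 and Aim2, the members with the brightest rows, did not share this shift. Ifi205, Ifi207 and Ifi208 had small positive differences at dim rows. Among the 8, 3 were called higher with limma and none lower, where 1.43% of all genes were called, 0.702% higher and 0.732% lower. The call of Ifi209 was lost without deleted mouse a or deleted mouse b, which left 2 members called.

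Ifi206 read 6.99, 6.97 and 7.74 in control mice a, b and c and 8.77, 8.67 and 9.03 in deleted mice a, b and c. The lowest deleted value lay 0.93 above the highest control, which was mouse c. Its mean rose from 7.23 ± 0.44 to 8.82 ± 0.18 (SD, n = 3 each), a log2 fold change of 1.59 ± 0.20 (SE, 95% interval 1.14 to 2.04). All of its values lay above the median of all values. Control mouse c and deleted mouse c were the highest of their groups.

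Ifi209, whose older names include Pyhin1, read 6.41, 4.97 and 5.51 in control mice a, b and c and 7.84, 7.72 and 7.53 in deleted mice a, b and c. Controls spread over 1.45 on the log2 scale, with mouse a highest, whereas the deleted mice spread over 0.31. The mean was 5.63 ± 0.73 in controls and 7.70 ± 0.16 in deleted mice (SD, n = 3 each). The log2 fold change was 2.07 ± 0.29 (SE, 95% interval 1.41 to 2.73), the highest among the members, and it ranged from 1.74 without control mouse b to 2.46 without control mouse a. That median was not reached by control mice b and c, where signal and background are hard to separate, so the fold is a ratio of deposited values.

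Ifi214 read 4.74, 4.40 and 4.53 in control mice a, b and c and 5.69, 5.91 and 5.59 in deleted mice a, b and c. The groups lay 0.86 apart at their nearest, but all 6 values were below the median of all values. The log2 fold change was 1.18 ± 0.13 (SE, 95% interval 0.89 to 1.46), from a mean of 4.56 ± 0.17 to 5.73 ± 0.16 (SD, n = 3 each). In controls the order of the mice, a above c above b, was that of Ifi209.

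Ifi207 and Ifi208, the latter also known as Pydc3, had dim rows that lay below the median of all values on every array. Ifi207 read 5.17, 5.06 and 5.01 in control mice a, b and c and 5.42, 5.35 and 5.32 in deleted mice a, b and c, a log2 fold change of 0.28 ± 0.10 (SE, 95% interval 0.06 to 0.50). Its groups did not overlap, with a gap of 0.15. Ifi208 read 3.97, 4.08 and 4.45 in controls and 4.46, 4.48 and 4.75 in deleted mice, in the same order of mice, a log2 fold change of 0.40 ± 0.14 (SE, 95% interval 0.07 to 0.72). The gap between its groups was only 0.016. Its mouse with the highest value was c in either genotype. Ifi208 shares a long promoter run with Ifi206, but its row was near the floor of the array. Its difference of 0.40 therefore cannot be set against the 1.59 of Ifi206. The part of the shared run in either value was not tested.

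Ifi205, a nuclear HIN-200 protein gene at the far end of the cluster, had the dimmest row. It read 2.87, 3.10 and 3.33 in control mice a, b and c and 3.81, 3.29 and 3.83 in deleted mice a, b and c. Deleted mouse b lay within the control range, so the groups overlapped. The log2 fold change was 0.54 ± 0.17 (SE, 95% interval 0.16 to 0.93), at levels where signal is not separated from background.

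Ifi203, another nuclear HIN-200 protein gene, was bright in every mouse. It read 11.24, 11.22 and 11.40 in control mice a, b and c and 11.47, 11.00 and 11.13 in deleted mice a, b and c. Deleted mouse a was the highest of all 6 and deleted mice b and c were the lowest, so the groups overlapped. The log2 fold change was -0.09 ± 0.13 (SE, 95% interval -0.39 to 0.21), an interval that holds none of the values of Ifi206, Ifi209 and Ifi214.

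Aim2, the inflammasome-forming DNA sensor, was also bright, and it lay on the other side. It read 9.82, 9.47 and 9.52 in control mice a, b and c and 9.11, 9.36 and 9.45 in deleted mice a, b and c. The deleted values were all below the controls, with deleted mouse c only just under control mouse b. The log2 fold change was -0.29 ± 0.13 (SE, 95% interval -0.60 to 0.01), and it stayed negative in each of 14 alternative settings, between -0.37 and -0.19. Over the 8 members, the groups did not overlap in 5 with higher deleted values (Ifi206, Ifi207, Ifi208, Ifi209 and Ifi214) and in 1 with lower values (Aim2), where 12.5% and 8.68% of all genes did not overlap in these directions. The median log2 fold change of the 8 was 0.47, beside 0.03 over all genes, and 6 were positive, beside 56.5% of all genes.

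**Figure D2:**
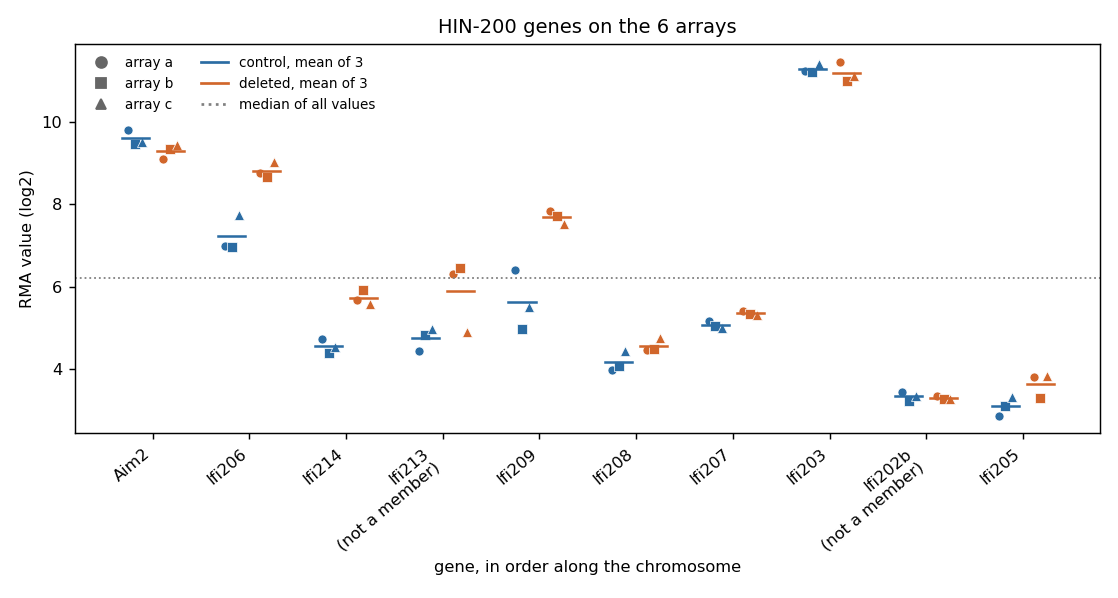
Deposited values (log2) of the 8 measured members and of Ifi213 and Ifi202b, other HIN-200 genes, on each of the 6 arrays, in order along chromosome 1. Points are single mice (circle a, square b, triangle c), short lines are means of 3 mice, blue is control and orange is deleted; Ifi206, Ifi214 and Ifi209 separate widely, Ifi213 is split by deleted mouse c, and Aim2 and Ifi203 stay bright in both genotypes.

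Other genes of the cluster that are no members were compared in the same fit. Ifi213, an Ifi200 gene also known as Pydc4, read 4.44, 4.83 and 4.99 in control mice a, b and c and 6.30, 6.46 and 4.89 in deleted mice a, b and c. Deleted mice a and b lay far above the controls, whereas deleted mouse c lay between control mice b and c. Its difference of 1.14 ± 0.35 (log2, SE) missed the threshold (limma adjusted p = 0.157). Leaving out single arrays gave 0.85 (without deleted mouse b) to 1.63 (without deleted mouse c). Only without deleted mouse c, the array that stood apart, did it pass (limma adjusted p = 0.00906). In other settings the adjusted p reached 0.349. Ifi202b, whose product lacks a PYRIN domain and inhibits Aim2, read 3.23 to 3.45 in controls and 3.29 to 3.34 in deleted mice (log2 fold change -0.04 ± 0.10 SE, adjusted p = 0.890). The row shared by Ifi204 and Ifi211 read 4.65, 4.26 and 4.35 in controls and 4.44, 4.64 and 4.66 in deleted mice, so these groups overlapped too, and it cannot be assigned to either gene. Of the 7 names in this list only Ifi213 and Ifi202b had rows outside the members, and 0 of these 2 were called; Pyhin1, Pydc3 and Pydc4 are older names of Ifi209, Ifi208 and Ifi213.

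In chromosome order the measured genes ran Aim2, Ifi206, Ifi214, Ifi213, Ifi209, Ifi208, Ifi207, Ifi203, Ifi202b and Ifi205. The 4 log2 fold changes above 1 belonged to the 4 consecutive genes Ifi206 (1.59), Ifi214 (1.18), Ifi213 (1.14, not called) and Ifi209 (2.07). They were bounded by Aim2 (-0.29) and Ifi208 (0.40). Beside the cluster, 0 of the 20 nearest measured genes, 10 on each side, were called with limma, where 1.43% of all genes were. So short a list would often hold none at that share. In 4 of the 20 every deleted value lay above every control and in 0 below, where 12.5% and 8.68% of all genes did so. The log2 fold changes of the 20 lay between -0.25 and 0.31 with a median of 0.05. All but Olfr433 lay below the median of all values, 6.20, on every array, as did Ifi208. A dim row can hide a shift but need not: Ifi214, below that median on all 6 arrays, differed by 1.18. The edge of the rise was not tested. Leaving aside olfactory receptor genes, which made up all 10 on the Ifi205 side, the nearest were on the Aim2 side: Cadm3, a cell adhesion gene (-0.00043 ± 0.14 SE, adjusted p = 0.999), Ackr1, the atypical chemokine receptor of red cells (0.27 ± 0.11 SE, 0.254), and Fcer1a, the IgE receptor alpha chain (-0.07, 0.891).

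**Figure D3:**
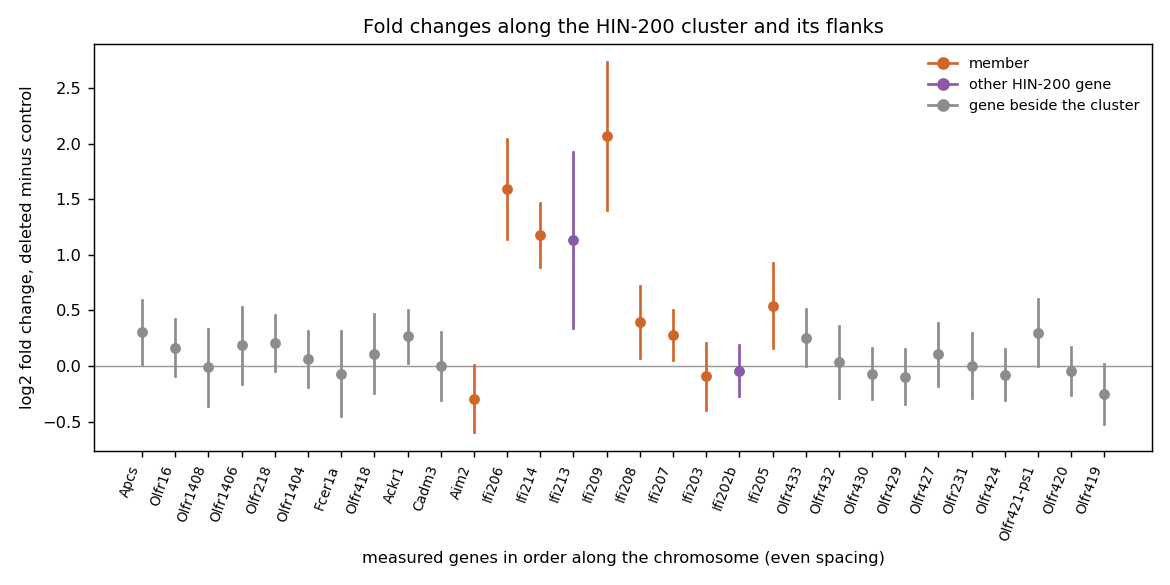
Log2 fold changes (deleted minus control) of measured genes in order along chromosome 1 with even spacing, with 95% intervals from limma (n = 3 mice per genotype). Orange marks members, purple the other HIN-200 genes and grey the 10 nearest genes on each side. Ifi206, Ifi214, Ifi213 and Ifi209 stand together above 1, and the 20 flanking genes, nearly all with dim rows, lie between -0.25 and 0.31.

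Probe sequences of the array were not used here. Transcripts of this family are alike, so a row may read more than its own gene, and cross-hybridisation between Ifi206, Ifi214, Ifi213 and Ifi209 was not tested. Across mice the rows were alike in some ways and not in others. Ifi209 and Ifi214 had the same order of control mice, a above c above b. Deleted mouse c was highest for Ifi206, lowest for Ifi214 and Ifi209, and in the control range for Ifi213. The brightest row of the family, Ifi203, had a log2 fold change of -0.09. These values cannot tell whether a row reads another gene.

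Genes of the pathways around this family, including those of other sensors such as Naip5, were compared. The lists were drawn from general knowledge, with earlier results of these data known. Of 20 genes of cytosolic nucleic acid sensing around STING, 0 passed (limma, all genes tested), where 1.43% of all genes did. A list this short would often hold none at that share. The median log2 fold change of the 20 was 0.07, beside 0.03 over all genes. The DNA sensor Cgas read 5.31 to 5.91 in controls and 5.69 to 6.31 in deleted mice, and the adaptor Sting1 8.04 to 8.10 and 8.05 to 8.32. The genes with the smallest p were the DNA exonuclease Trex1 (0.37 ± 0.10 SE, adjusted p = 0.113) and the nucleotide hydrolase Samhd1 (0.33 ± 0.10 SE, adjusted p = 0.145). In both, the 3 deleted mice lay above all controls, as they did in 12.5% of all genes.

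Of 19 inflammasome genes, 2 were called lower and 0 higher in deleted cells, where 0.732% and 0.702% of all genes were. Txnip, a thioredoxin-binding protein that can bind Nlrp3, read 10.14, 10.05 and 10.01 in control mice a, b and c and 9.31, 9.15 and 9.15 in deleted mice a, b and c. It fell by 0.86 ± 0.10 (SE, adjusted p = 0.00671), and its groups were far apart. Naip5, a sensor of bacterial flagellin, read 6.18, 6.20 and 6.13 in controls and 5.66, 5.19 and 5.38 in deleted mice. It fell by 0.76 ± 0.13 (SE, adjusted p = 0.0267), but the call was lost without control a, b or c or deleted b or c (adjusted p up to 0.0977). Pycard and Casp1, partners of Aim2, did not pass. Pycard read 8.28 to 9.10 in controls and 8.93 to 9.08 in deleted mice, and Casp1 8.85 to 9.18 and 9.15 to 9.46. Il18 (-0.60, limma adjusted p = 0.0539), Gsdmd (-0.53, 0.0641) and Casp4 (0.50, 0.0821) came nearest to the threshold. Il18 passed with cyclic loess and with an intensity trend in the prior, and Gsdmd when only brighter genes were fitted. Over the 19, groups did not overlap in 5 with lower and 2 with higher deleted values, where 8.68% and 12.5% of all genes did so.

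Of 29 measured type I interferon response genes, 1 was called higher and 0 lower, where 0.702% and 0.732% of all genes were. Rtp4, an interferon-inducible chaperone of membrane receptors, read 9.84, 9.48 and 10.06 in control mice a, b and c and 11.11, 10.69 and 10.67 in deleted mice a, b and c. It rose by 1.03 ± 0.17 (SE, adjusted p = 0.0241), and the call was lost without control a or b or deleted a or b (up to 0.0781). Ifit1, an interferon-induced RNA-binding protein, had the next smallest p, with a difference of 0.54 ± 0.12 (log2, SE, adjusted p = 0.0573). It passed after quantile scaling, median centring and cyclic loess and when only the brighter genes were fitted (lowest adjusted p 0.0377). Ifit3, of the same family, read 6.49 to 6.96 in controls and 7.22 to 8.26 in deleted mice, a difference that did not pass (0.99 ± 0.23 SE, 0.0772; it passed with the replicate block, at 0.0399). The list's median log2 fold change was 0.11, beside 0.03 over all genes, and 21 of its 29 genes were positive, beside 56.5% of all genes. In 8 of the 29 every deleted value lay above every control, and in 1 below, where 12.5% and 8.68% of all genes did. Among the 8 was Ifi27l2a (0.79 ± 0.22 SE, limma adjusted p = 0.119), which passed without control mouse c. Mx1, whose promoter drives Cre, read 4.47 to 4.77 in controls and 4.54 to 4.87 in deleted mice. Of 18 measured interferon-gamma response genes 0 passed, where 1.43% of all genes did, and their median log2 fold change was -0.06. The proteasome gene Psmb9 (-0.49 ± 0.16 SE, 0.184) and the GTPase gene Irgm1 (0.50 ± 0.18 SE, 0.204) had the smallest p.

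**Figure D4:**
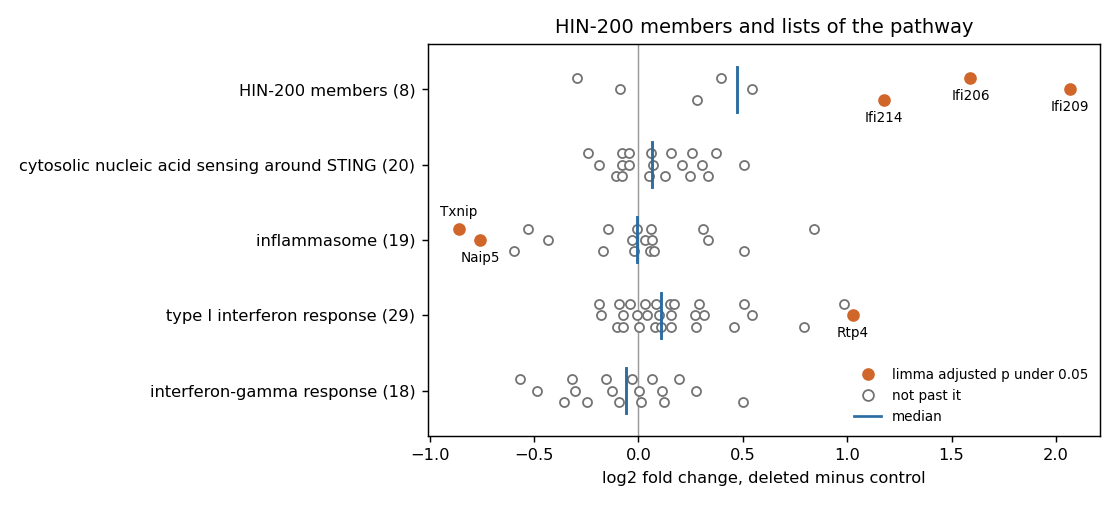
Log2 fold changes (deleted minus control) of the 8 measured members and of 4 lists of the pathway, with the number of measured genes in brackets. Each point is a gene, filled where the limma adjusted p is under 0.05, and the blue line is the list's median (0.47 for the members, 0.07, -0.01, 0.11 and -0.06 for the lists); 3 listed genes outside the family are filled, Txnip, Naip5 and Rtp4.

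The interferon response element described above was in the promoter windows of 10 of 21 type I interferon response genes with a window (47.6%), and of 3.89% of all measured genes with one. Among genes called higher it was in 8 of 105 (7.62%), and among those called lower in 4 of 121 (3.31%). The genes called higher include Ifi206 and Ifi214, and no test was made of these shares.

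By Pearson's r over the 6 arrays with the mean of Ifi206, Ifi209 and Ifi214, the genes outside the family with the most similar pattern were Fabp5 (r = 0.997), Atp8b4 (0.992), Psmd12 (0.991), Palmd (0.991) and Apol8 (0.990). Fabp5 encodes a fatty acid-binding protein, Atp8b4 a phospholipid-transporting ATPase subunit, and Psmd12 a proteasome subunit. These r values mostly reflect the split between genotypes. Fabp5 rose by 1.01 ± 0.12 (SE, adjusted p = 0.00662) and Atp8b4 by 1.02 ± 0.12 (SE, adjusted p = 0.00745), while Psmd12 (0.27), Palmd (0.22) and Apol8 (0.36) did not pass. Of the rest of the family, Ifi207 had an r of 0.94 with that mean, Ifi208 0.74, Ifi205 0.73 and Ifi213 0.71. For Ifi202b, Ifi203 and Aim2 the r was -0.10, -0.24 and -0.61.

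Markers of other cell types were read beside these values. The mean level of 10 monocyte and macrophage markers, a cell type known for this family, was 6.22 to 6.32 in controls and 6.10 to 6.30 in deleted mice, with 1 of 10 called, Cd68, lower. That of 10 dendritic cell markers was 6.44 to 6.49 and 6.37 to 6.48, with 1 of 10 called, Flt3, lower. Flt3 read 8.96 to 9.99 over the 6 arrays, and whether its fall lies in dendritic cells or in the progenitors was not tested. The 11 T and NK cell markers had a mean of 5.47 to 5.60 in controls and 5.60 to 5.79 in deleted mice, with 0 called, and 8 B cell markers 5.94 to 6.02 and 5.95 to 6.30, also with 0 called. The mean of 10 neutrophil markers was 6.26 to 6.32 in controls and 5.32 to 5.40 in deleted mice. Of these, S100a8, S100a9, Camp and Csf3r were called lower, led by S100a8 (-3.51) and S100a9 (-3.37), and 3 of 10 had positive differences (Cxcr2, Mmp8 and Retnlg, not called). The mean of 9 mast cell and basophil markers was 5.96 to 6.02 in controls and 6.28 to 6.49 in deleted mice, with 1 of 9 called, Cpa3, higher by 3.47. Their median log2 fold change was 0.09, and 4 of the 9 were negative, among them Cma1 (-0.45, not called). The part of these cells in the values of Ifi206, Ifi209 and Ifi214 was not tested.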

How the data were processed

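The authors deposited log2 values for 35556 probe sets on 6 arrays. RNA was amplified before labelling, per the labels' protocols. The submitters' processing notes name RMA and Affymetrix Expression Console 1.1.2; neither their settings nor a build is given in the sources used here. Rows were named through the platform's annotation table: 21789 name 1 gene, 1621 several and 12146 are unnamed here. Where a gene had several rows (999 genes), the row with the highest mean was kept, which left 19938 genes, with no filter on dim rows.

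The genotype comparison used limma 3.58.1 (R 4.3.3, two-sided, Benjamini-Hochberg over all genes, threshold 0.05), tested on simulated data. Differences are deleted minus control with moderated SE. Members and lists were chosen with earlier results of these data known. Named were all members, Cebpa and the listed genes of smallest p (up to 3 called per direction, otherwise 2). Also named were the genes nearest to the cluster and the 5 most similar by Pearson's r. Cgas, Sting1, Pycard, Casp1, Il18, Gsdmd, Casp4, Ifit3, Ifi27l2a, Mx1 and the flanking gene Olfr433 were added after their values were seen. Promoters come from RefSeq (GRCm38.p6). A planned comparison of the members' proteins was not made. Alternatives were other scalings, priors and filters, the mean of a gene's rows, a replicate block and leaving out each array. Same-letter deviations correlated between -0.04 and 0.06 across genes, so the letters were not taken as pairs. Python 3.11.15 and matplotlib 3.10.9 were used.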

Additional observations from a re-analysis of the deposited data

How the results depend on the processing

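With only the brighter genes fitted (mean intensity from the median up), which kept 4 members, 438 genes were called, 2 members were positive and the members' median log2 fold change was 0.75. Leaving out single arrays gave 53 to 250 genes called (for control mice a, b and c left out 126, 53 and 250; for deleted mice 145, 84 and 143), 1 to 3 called inflammasome genes (3 without deleted mouse a, where Nlrc4 was added), 0 to 2 called type I interferon response genes and 0 to 1 of the other HIN-200 genes. Called inflammasome genes also numbered 3 with cyclic loess and with an intensity trend in the prior, where Il18 was added. Called type I interferon response genes numbered 2 after quantile normalization, median centring and cyclic loess, in the brighter genes and with the replicate block. That block, by title letter, called 274 genes and the same 3 members, and Ifit3 passed with it (adjusted p = 0.0399). Calls that were higher made up 49.0% of all calls, 61.6% after quantile normalization and 65.8% after median centring. In every setting that kept them, Ifi206, Ifi209 and Ifi214 stayed positive by 1.46 to 1.85, 1.74 to 2.46 and 1.09 to 1.27, and Ifi203 lay between -0.23 and 0.01. Rows near the floor of the array limit Ifi205, Ifi207, Ifi208 and Ifi214.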
